A study of Mus musculus with 6 samples.

Results

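Many nuclear genes of mitochondrial proteins have their mRNA held at the outer mitochondrial membrane, where it is translated next to the import machinery. The mRNA of Pink1, the kinase that marks damaged mitochondria for removal, is known from mouse neurons to be held there by a pair of proteins: Synj2bp, anchored in the outer membrane, recruits Synj2, which binds the RNA. Other RNA-binding proteins, among them Cluh and Akap1, bind further mRNAs of mitochondrial proteins or control their translation and decay. Described here are 10 genes of this kind: the tether genes Synj2bp and Synj2 with the paralog Synj1, the mitochondrial RNA-binding genes Cluh and Akap1, and the general RNA-binding genes Larp1, Larp4, Pum2, Fmr1 and Khsrp. They were taken from the deposited table by gene symbol, and all 10 were found among its 17034 genes with values and passed the filter on low counts.

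Gastrocnemius, a mixed hindlimb muscle, was taken from male mice of 8 weeks and its polyadenylated RNA sequenced, with 3 libraries per genotype. TRa_mKO mice were homozygous for a floxed Thra, which encodes thyroid hormone receptor alpha, and expressed Cre recombinase from Myf5, which is active from early myogenesis and also in precursors of satellite cells and brown fat. WT mice were littermates with the same floxed alleles (Thrafl/fl) and no Cre. Only TRa_mKO mice carried Cre, so its presence and loss of the receptor cannot be told apart. Other cell types of the muscle are outside the reach of this Cre, and whole muscle was sequenced, so more RNA per cell and more cells of a type cannot be told apart. The series asks how loss of the receptor in muscle relates to the placement of Pink1 mRNA at mitochondria; RNA of whole tissue gives the amount of each transcript and not its place in the cell.

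Total counts were 12390527 to 14488500 in TRa_mKO libraries and 12979945 to 14266742 in WT libraries. Defining transcripts of skeletal muscle (6 of 6 detected) summed to 119000 to 135000 CPM (normalised read counts, scaled to a common library size) in TRa_mKO and 93600 to 128000 CPM in WT. Thra itself was not lower in TRa_mKO (129, 118 and 101 CPM, against 78.8, 92.8 and 96.9 CPM in WT). Its libraries stood apart with TRa_mKO higher (log2 fold change 0.37, edgeR adjusted p = 0.117), and some of its counts were not whole. A gene-level count does not show which exons were read, so it checks neither the deletion nor the labels, and every direction below rests on the labels. Endothelial markers (5 of 5 detected) summed to 602 to 838 CPM in TRa_mKO and 831 to 1040 CPM in WT, and Schwann cell markers to 315 to 423 CPM in TRa_mKO and 208 to 859 CPM in WT. All 5 endothelial markers had a log2 fold change below 0 (median -0.35), as did all 5 Schwann cell markers (median -0.78). In edgeR 0 of either 5 passed, against 4.17% of all tested genes. At an unadjusted p below 0.05 there were 4 endothelial markers and 1 Schwann cell marker, against 17.9% of all tested genes. Fibroblast markers summed to 1070 to 1470 CPM in TRa_mKO and 1060 to 1570 CPM in WT, and fat cell markers to 491 to 679 CPM in TRa_mKO and 592 to 828 CPM in WT. Most of the fat cell sum was Fabp4, with means of 546 CPM in TRa_mKO and 674 CPM in WT (edgeR adjusted p = 0.374). The means of Cfd (25.6 CPM in TRa_mKO, 26.7 CPM in WT), Adipoq (5.82 and 5.74 CPM) and Plin1 (1.27 and 1.13 CPM) were far lower, with overlapping libraries. Lep was too low to be tested. Immune markers were scarce, at 18.6 to 28.1 CPM in TRa_mKO and 20.8 to 27.6 CPM in WT. Red blood cell markers ran from 710 to 1620 CPM in TRa_mKO and from 458 to 1760 CPM in WT. Satellite cell markers summed to 165 to 228 CPM in TRa_mKO and 174 to 191 CPM in WT, mostly Cd34 (mean 146 CPM in each genotype). Of the 5, 1 passed, Pax7, which rose 1.58-fold (edgeR adjusted p = 0.0261), where 4.17% of all tested genes passed. Calcr and Myf5 were also higher in every TRa_mKO library than in any WT library, without passing (edgeR adjusted p = 0.0763 and 0.331). Such a separation was shown by 13.2% of all tested genes. Cdh15 and Cd34 overlapped. Myf5 is also the gene that drives Cre in TRa_mKO. The part of these cell types in the values below was not tested.

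None of the 10 genes passed the test between genotypes (edgeR's quasi-likelihood fit, adjusted p below 0.05 by Benjamini-Hochberg over 13118 genes), where 4.17% of all tested genes did, 2.52% of them higher and 1.65% lower in TRa_mKO. DESeq2 called 0 of the 10, against 5.45% of the genes it tested, and limma-voom 0, against 3.87%. At an unadjusted p below 0.05 there was 1 of 10, Akap1, against 17.9% of all tested genes. Akap1 was also the 1 member whose libraries did not overlap between genotypes, which 23.2% of tested genes showed, 13.2% with TRa_mKO higher and 10.1% with it lower. The log2 fold change, TRa_mKO over WT, was above 0 for 3 members and below 0 for 7, with a median of -0.03. Its median size without sign was 0.053, against 0.141 over all tested genes. The members had 303 to 2354 counts per library, while the filter admits genes near its minimum count of 10. These sizes were not matched for depth. The 95% confidence intervals bound what the data allow. The highest upper bound was a 1.39-fold higher level in TRa_mKO, for Akap1, and the furthest bound the other way was a 1.35-fold higher level in WT, for Synj2.

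**Figure D1:**
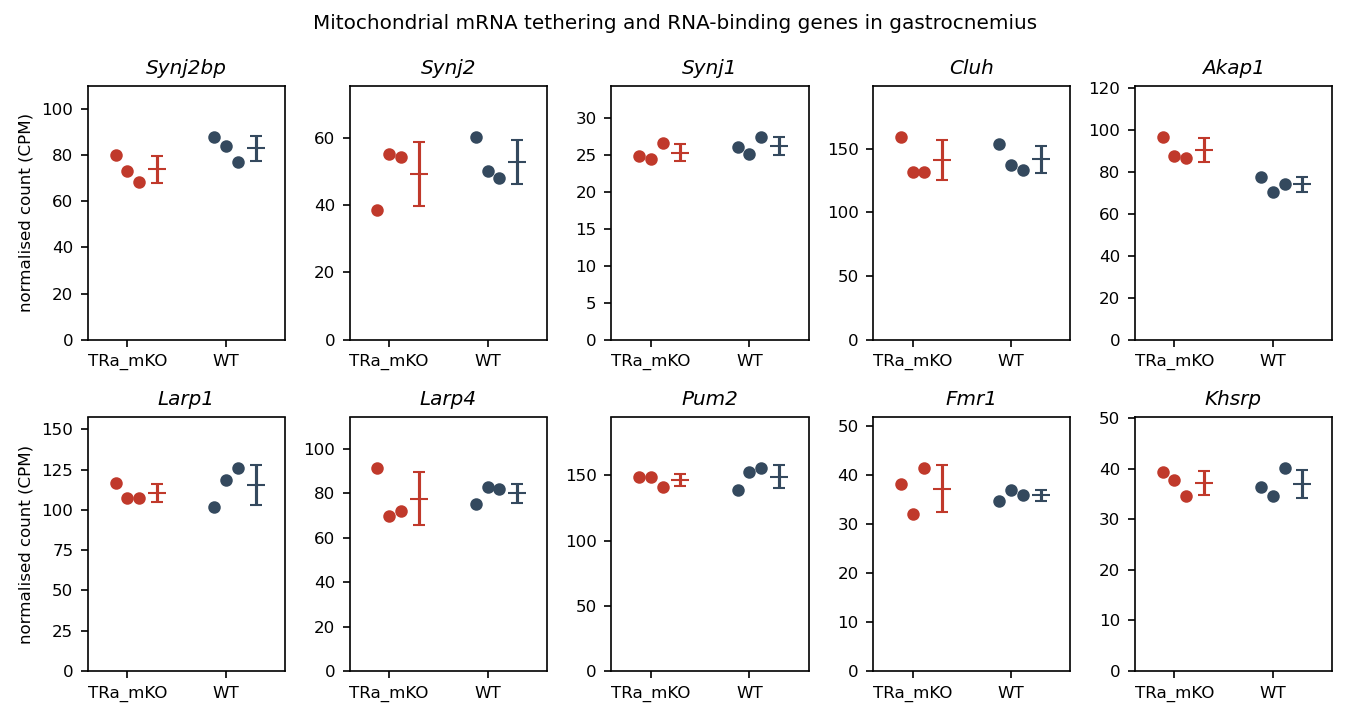
Normalised counts (CPM, vertical axis from 0) of the 10 genes in the 3 TRa_mKO libraries (red, left) and the 3 WT libraries (dark, right); each point is a library, and the bar beside it is the mean with SD (n = 3). Akap1 is the member whose groups do not meet (86.4 to 96.7 CPM in TRa_mKO, 70.4 to 77.5 CPM in WT).

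**Figure D2:**
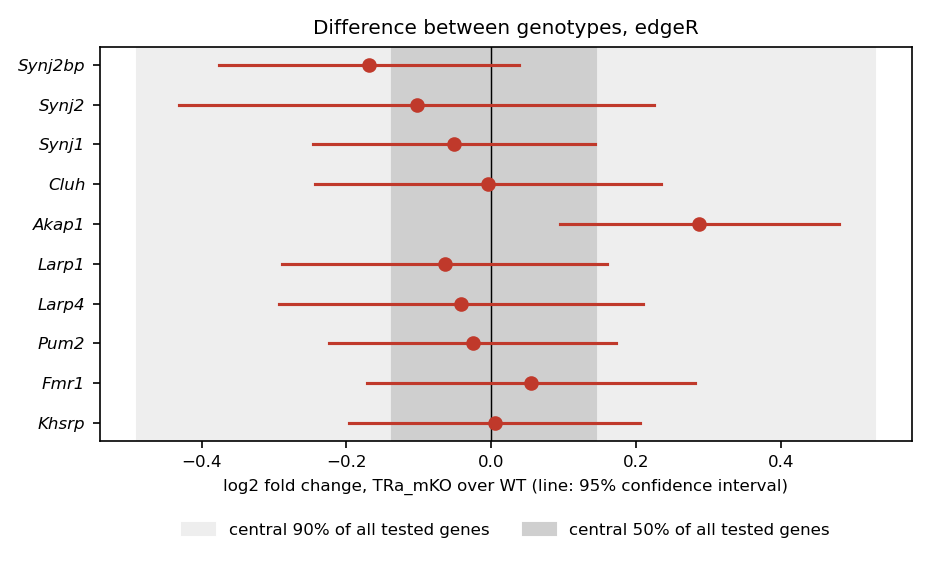
Log2 fold change of each gene, TRa_mKO over WT (horizontal axis; point: edgeR estimate, line: 95% confidence interval), over bands that hold the central 50% and 90% of all tested genes. The intervals of all members but Akap1 (0.09 to 0.48) cross 0.

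Synj2bp encodes the outer membrane protein that recruits Synj2 through its PDZ domain. It measured 80.0, 73.2 and 68.4 CPM in TRa_mKO and 88.1, 83.9 and 77.2 CPM in WT. The means were 73.9 ± 5.79 CPM in TRa_mKO and 83.1 ± 5.51 CPM in WT (SD, n = 3 each), and the groups overlapped, since the highest TRa_mKO library stood above the lowest WT library. The log2 fold change of -0.17 (SE 0.093, interval -0.38 to 0.04) did not pass (edgeR adjusted p = 0.383). Its counts were not whole, which can mean reads shared with other features. No source used here says how such counts arose.

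Synj2 encodes an inositol phosphatase of which a splice form carries the end that Synj2bp binds. It measured 38.4, 55.2 and 54.25 CPM in TRa_mKO and 60.4, 50.3 and 48.2 CPM in WT. TRa_mKO replicate 1 was the lowest of the 6 libraries, and the other TRa_mKO libraries lay inside the WT range. Its coefficient of variation was 19.1% in TRa_mKO and 12.3% in WT, where counting error alone gives 3.79%. The log2 fold change was -0.10 (SE 0.15, interval -0.43 to 0.22, edgeR adjusted p = 0.778), and without TRa_mKO replicate 1 it was 0.05. GENCODE lists 16 transcripts of Synj2, 9 of them coding, and the deposited counts are per gene, so the form that binds Synj2bp is not separated from the others. The counts of Synj2, too, were not whole.

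Synj1, the paralog known for recycling synaptic vesicles, varied little: 24.5 to 26.6 CPM in TRa_mKO and 25.1 to 27.5 CPM in WT. Its log2 fold change was -0.05 (interval -0.25 to 0.14, edgeR adjusted p = 0.821). The within-genotype variation of 4.41% in TRa_mKO and 4.53% in WT was below the 5.32% that counting error gives at its depth of 303 to 416 counts.

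For Akap1, an outer membrane protein that anchors protein kinase A and binds mRNA through KH and Tudor domains, the libraries of the genotypes stood apart. It measured 96.7, 87.7 and 86.4 CPM in TRa_mKO and 77.5, 70.4 and 74.1 CPM in WT (90.3 ± 5.61 CPM in TRa_mKO and 74.0 ± 3.53 CPM in WT, mean ± SD, n = 3 each). The level in TRa_mKO was 1.22-fold that of WT (log2 fold change 0.29, SE 0.087), which did not pass (edgeR adjusted p = 0.105). Over 15 other fits, with other scalings, filters and tools or with libraries left out, its log2 fold change stayed above 0 (lowest 0.23, highest 0.35) and its adjusted p ran from 0.102 to 0.289. Of the 6 muscle transcripts, 0 passed in edgeR, against 4.17% of all tested genes. At an unadjusted p below 0.05 there were 2, against 17.9%. Those of Acta1, Mylpf and Ckm were higher in every TRa_mKO library than in any WT library (log2 fold changes 0.46, 0.44 and 0.28). Such a separation was shown by 13.2% of all tested genes. Those of Pvalb, Tnnt3 and Myh4 overlapped (0.17, 0.04 and -0.20). The part of the muscle transcripts in the Akap1 values was not tested.

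The subunits of the kinase that Akap1 anchors were among the genes read beside it. The catalytic subunit gene Prkaca measured 141, 127 and 121 CPM in TRa_mKO and 98.0, 106 and 109 CPM in WT (log2 fold change 0.31, edgeR adjusted p = 0.106). The regulatory subunit gene Prkar1a measured 381.5, 426 and 381 CPM in TRa_mKO and 303, 311 and 338 CPM in WT (log2 fold change 0.32, edgeR adjusted p = 0.118). Both stood apart with TRa_mKO higher, as did 13.2% of all tested genes and 8 of the 34 tested genes of their list. Neither passed in edgeR, and DESeq2 called Prkar1a. The other subunit genes in the list had log2 fold changes below 0 with overlapping libraries: Prkar2a -0.16, Prkacb -0.11 and Prkar2b -0.19.

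Cluh, which binds mRNAs of mitochondrial enzymes and gathers them in granules, measured 159.5, 132 and 132 CPM in TRa_mKO and 154, 138 and 133 CPM in WT. Its means were 141 ± 15.9 CPM in TRa_mKO and 142 ± 10.7 CPM in WT (SD, n = 3 each), and the log2 fold change of -0.01 had an interval of -0.24 to 0.23 (edgeR adjusted p = 0.987). TRa_mKO replicate 1 was the highest of the 6 libraries for Cluh, Akap1 and Larp4. The 10 genes summed to 834, 768 and 764 CPM in TRa_mKO and to 792, 793 and 799.5 CPM in WT, so the summed level differed more among TRa_mKO libraries than between the genotypes.

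Larp1 binds mRNAs of the translation machinery that start with a pyrimidine tract and acts downstream of mTORC1. It ranged over 107 to 117 CPM in TRa_mKO and 102 to 126 CPM in WT (log2 fold change -0.06, interval -0.29 to 0.16, edgeR adjusted p = 0.803). Larp4, which binds poly(A) tails and their binding protein and, in human cells, works with Akap1 at mitochondria, measured 91.2, 69.7 and 71.8 CPM in TRa_mKO and 74.9, 82.8 and 81.9 CPM in WT. Its TRa_mKO libraries spanned the whole WT range (log2 fold change -0.04, interval -0.29 to 0.21, edgeR adjusted p = 0.899). Khsrp, a KH-domain protein that promotes decay of AU-rich mRNAs, had the log2 fold change nearest 0 (34.5 to 39.25 CPM in TRa_mKO, 34.6 to 40.1 CPM in WT, log2 fold change 0.00, interval -0.20 to 0.21, edgeR adjusted p = 0.986).

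Fmr1, the translational repressor lost in fragile X syndrome, measured 38.15, 32.0 and 41.3 CPM in TRa_mKO and 34.7, 36.9 and 35.8 CPM in WT. The WT values lay between those of the TRa_mKO libraries, whose coefficient of variation was 12.8% against 3.20% in WT (log2 fold change 0.05, interval -0.17 to 0.28, edgeR adjusted p = 0.842).

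Pum2, a Pumilio repressor that in mice is known to hold back Mff mRNA in ageing muscle, measured 149, 149 and 141 CPM in TRa_mKO and 139, 153 and 155 CPM in WT (log2 fold change -0.03, interval -0.22 to 0.17, edgeR adjusted p = 0.926). Mff, whose protein recruits the fission machinery to mitochondria, measured 140, 133 and 130 CPM in TRa_mKO and 133, 145 and 137 CPM in WT (log2 fold change -0.04, edgeR adjusted p = 0.849). Pumilio proteins bind TGTANATA in 3′ UTRs, and this motif was searched on the transcript strand of the longest coding GENCODE M21 transcript of each gene. It was present in 5 of the 10 members, in Mff, and in 26.7% of 12798 tested genes with a 3′ UTR. The members' 3′ UTRs were longer (median 2218 bases, against 1185 over all these genes). The sites of the members and of Mff are shown because Pum2 is a member and these are the letters its motif takes in the members' own mRNAs; each is 24 bases of GRCm38 transcript sequence, 5′ to 3′, with the motif in capitals.
Pum2 first site: tatagagaTGTATATAgaattata
Pum2 second site: tacagaatTGTATATActtataat
Fmr1 first site: taaaatacTGTAGATAattaacca
Fmr1 second site: atattctcTGTACATAttagcgac
Akap1 first site: aacatagaTGTAAATAaggaacag
Akap1 second site: tcgaactcTGTAAATAatatgttt
Cluh site: cttcctgaTGTACATAgcccagtc
Synj1 site: atacattcTGTACATAtcttgtga
Mff site: gcatgtctTGTAAATAggctctag
Both Pum2 sites read TGTATATA, and both Akap1 sites and the Mff site TGTAAATA. The Cluh site, the Synj1 site and the second Fmr1 site read TGTACATA, and the first Fmr1 site TGTAGATA. A match is a description and not a bound site. Over all tested genes with a 3′ UTR, those with the motif had a median log2 fold change of -0.01 and those without it 0.00, and 3.71% and 4.32% of them were called. Pink1 held no match, and among 27 mRNAs of mitochondrial proteins 3 did (Pcca, Acat1 and Atp5g1, with edgeR adjusted p of 0.792, 0.391 and 0.516).

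Thyroid hormone receptors bind the core AGGTCA, often as a direct repeat with 4 bases between. The 300 bases around each listed start (250 before, 50 after; RefSeq, GRCm38.p6) were read for all 10 members, 17 windows in all. None of the 17 held AGGTCA on either strand, where 16.3% of 32851 windows did; the repeat occurred in 0.0152% of all windows. The motif of NRF1, a regulator of respiratory genes, was searched as the palindrome of 10 bases that stands in capitals in the Fmr1 window. It occurred in 0.971% of all windows and, among members, in both overlapping Fmr1 windows. Windows of Synj2, Synj2bp and the inner Akap1 starts held 4 to 11 CG dinucleotides, and those of the other members and of the outer Akap1 start 24 to 61, with a median of 7 over all windows. The windows of Akap1 (chr11:88864537-88864836, minus strand) and Synj2bp (chr12:81532862-81533161, minus strand) are shown because these members had the smallest unadjusted p. That of Fmr1 (chrX:68678291-68678590, plus strand) is shown for the motif. Capitals mark the 50 transcribed bases in the first pair and the NRF1 motif in Fmr1, which begins 93 bases before the start.
Akap1 promoter: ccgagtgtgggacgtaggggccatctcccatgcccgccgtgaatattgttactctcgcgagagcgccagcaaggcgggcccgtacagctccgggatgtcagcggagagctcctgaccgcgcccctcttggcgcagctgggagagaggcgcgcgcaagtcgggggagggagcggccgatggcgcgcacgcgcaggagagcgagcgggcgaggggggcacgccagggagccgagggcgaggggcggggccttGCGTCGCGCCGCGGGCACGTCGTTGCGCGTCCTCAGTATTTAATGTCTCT
Synj2bp promoter: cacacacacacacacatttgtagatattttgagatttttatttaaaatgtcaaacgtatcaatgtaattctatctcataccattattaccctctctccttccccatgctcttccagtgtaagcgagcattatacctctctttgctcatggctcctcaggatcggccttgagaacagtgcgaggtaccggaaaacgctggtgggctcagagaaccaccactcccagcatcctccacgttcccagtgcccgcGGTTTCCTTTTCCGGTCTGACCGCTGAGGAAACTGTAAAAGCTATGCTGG
Fmr1 promoter: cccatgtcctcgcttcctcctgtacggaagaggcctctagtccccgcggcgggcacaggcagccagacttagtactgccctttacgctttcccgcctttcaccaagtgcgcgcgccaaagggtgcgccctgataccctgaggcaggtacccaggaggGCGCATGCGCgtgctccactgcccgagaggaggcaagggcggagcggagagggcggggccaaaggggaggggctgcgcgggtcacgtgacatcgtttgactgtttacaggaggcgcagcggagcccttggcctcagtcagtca
No match says only that these letters are not in these windows.

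Levels were compared between genes per kilobase of the longest coding transcript. Cluh was highest (26.2 ± 2.96 CPM per kilobase in TRa_mKO, 26.3 ± 2.00 in WT; SD, n = 3 each) and Synj1 lowest (3.57 ± 0.158 in TRa_mKO, 3.70 ± 0.168 in WT). In between came Pum2, Akap1, Larp1, Synj2bp, Larp4, Khsrp, Synj2 and Fmr1. Over the 6 libraries, neighbours in this order overlapped except at 3 steps: Synj2bp stood above Larp4, Larp4 above Khsrp, and Fmr1 above Synj1. On the same scale the tether gene Synj2bp had 15.9 ± 1.24 in TRa_mKO and 17.8 ± 1.18 in WT, and its partner Synj2 8.70 ± 1.66 in TRa_mKO and 9.35 ± 1.15 in WT. Pink1 was far above both, at 299 ± 16.8 CPM per kilobase in TRa_mKO and 247 ± 3.39 in WT. No source used here names the annotation behind the counts, so these lengths are approximate.

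**Figure D3:**
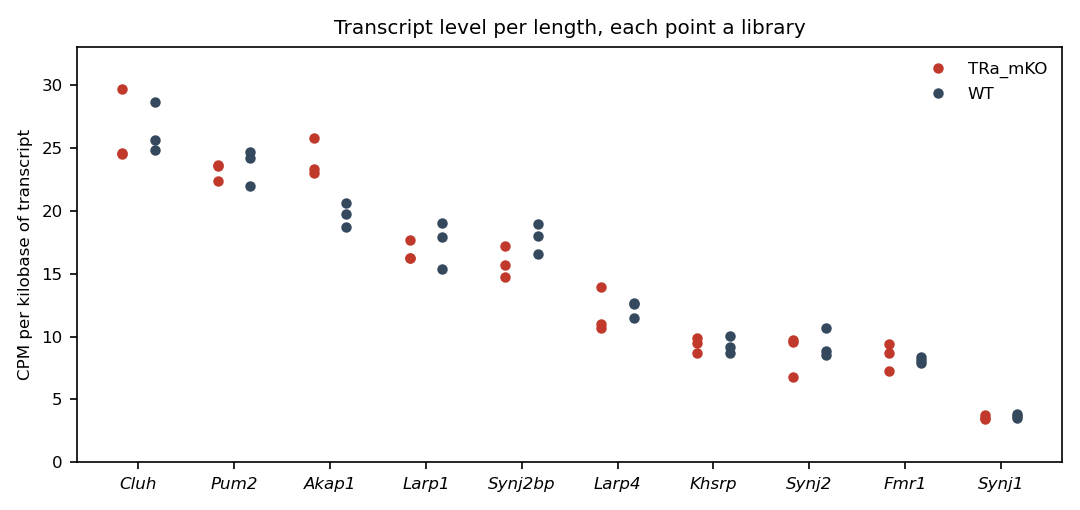
Level per length (CPM per kilobase of the longest coding transcript, vertical axis from 0) of the 10 genes, in order of their mean; each point is a library, TRa_mKO in red and WT dark. Cluh lies at 24.5 to 29.6 and Synj1 at 3.45 to 3.87.

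Ratios of 2 genes within a library need no scaling between libraries, and 8 pairs were compared by an exact two-sided permutation test over the 6 libraries, whose smallest possible p is 0.1. The log2 ratio of Synj2bp to Pink1 counts was -3.09, -3.25 and -3.46 in TRa_mKO and -2.72, -2.80 and -2.95 in WT. The groups stood apart, and Synj2bp counts per Pink1 count were 1.36-fold higher in WT (difference of mean log2 ratios -0.44, exact p = 0.1, adjusted p = 0.4 over the 8 pairs). Pink1 itself measured 681, 695 and 756 CPM in TRa_mKO and 579, 586 and 595 CPM in WT (log2 fold change 0.28, edgeR adjusted p = 0.179; called by DESeq2), so the ratio combines a higher Pink1 and a lower Synj2bp mean, neither of which passed in edgeR.

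The log2 ratio of Cluh to Akap1 was 0.72, 0.59 and 0.61 in TRa_mKO and 0.99, 0.97 and 0.85 in WT, again apart (difference -0.29, exact p = 0.1, adjusted p = 0.4). The tether partners Synj2 and Synj2bp had a log2 ratio of -1.06, -0.41 and -0.33 in TRa_mKO and -0.54, -0.74 and -0.68 in WT, with TRa_mKO libraries on both sides of WT (exact p = 0.9). The other ratios reported overlapped: Synj2 to Synj1 differed by -0.06 (exact p = 0.7), Fmr1 to Fxr1 by -0.03 (exact p = 1), Larp4 to Larp1 by 0.01 (exact p = 1) and Khsrp to Fubp1 by -0.13 (exact p = 0.2). The balance between paralogs was uneven in both genotypes. Fxr1, a muscle-rich relative of Fmr1, had 462 ± 50.9 CPM in TRa_mKO and 438 ± 11.9 CPM in WT.

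**Figure D4:**
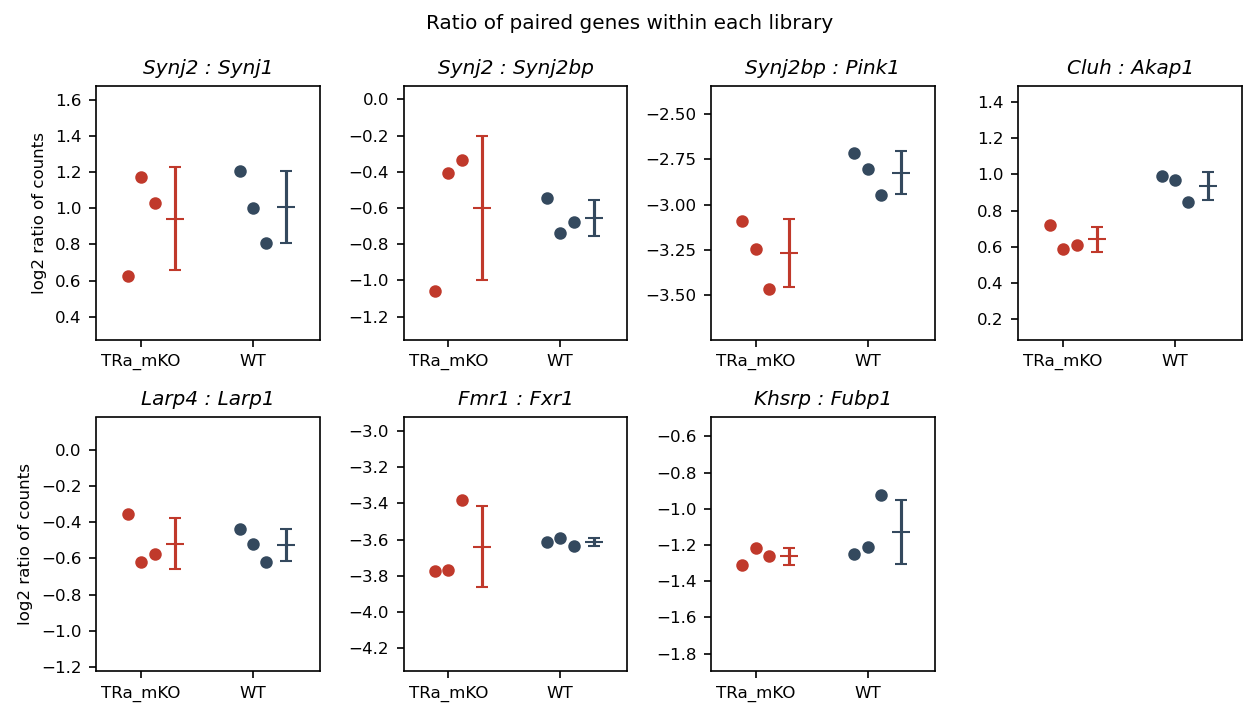
Log2 ratio of the counts of 2 genes in each library for 7 of the 8 pairs (vertical axis, each panel spanning the same range) in TRa_mKO (red, left) and WT (dark, right); each point is a library, and the bar is the mean with SD (n = 3). Synj2bp to Pink1 (-3.46 to -3.09 in TRa_mKO, -2.95 to -2.72 in WT) and Cluh to Akap1 are the panels whose groups do not meet.

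Other genes of the machinery were read in 4 lists, to be set against all tested genes. Of those, edgeR called 4.17%, DESeq2 5.45% and limma-voom 3.87%, and 17.9% had an unadjusted p below 0.05. Of 17 genes from the members' protein families, 0 passed in edgeR (0 at an unadjusted p below 0.05, 0 by DESeq2, 0 by limma-voom), and their median log2 fold change was 0.00. The smallest p went to Ocrl and Inpp5b, inositol phosphatases like the synaptojanins (log2 fold change -0.20 and -0.19, edgeR adjusted p = 0.372 and 0.374), and to Fubp1, a relative of Khsrp (0.14, adjusted p = 0.479). Of 23 genes of outer membrane import, docking and transport, 0 passed in edgeR (2 at an unadjusted p below 0.05, 1 by DESeq2, 0 by limma-voom), with a median of 0.01.

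Rhot2, the Miro GTPase that ties mitochondria to motor proteins, was the member of that list nearest a call. It measured 74.0, 58.4 and 58.3 CPM in TRa_mKO and 98.7, 81.0 and 79.9 CPM in WT, with no overlap (log2 fold change -0.44, SE 0.12, edgeR adjusted p = 0.0796). It was called by DESeq2 and by edgeR when TRa_mKO replicate 1 was left out. Trak1, the motor adaptor that binds Miro, had 139 ± 12.4 CPM in TRa_mKO and 168 ± 5.68 CPM in WT (SD, n = 3 each; log2 fold change -0.27, edgeR adjusted p = 0.17). Tomm70a, an import receptor, had a log2 fold change of -0.19 (edgeR adjusted p = 0.329).

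Of 34 tested partners in translation, decay and granules (35 listed), 1 rose and 0 fell, with a median of -0.02 (6 at an unadjusted p below 0.05, 3 by DESeq2, 1 by limma-voom). Over all tested genes edgeR called 4.17%, DESeq2 5.45% and limma-voom 3.87%, and 17.9% had an unadjusted p below 0.05. The riser was Cyfip2, a protein that binds the Fmr1 product and belongs to the WAVE actin complex. It measured 12.9, 14.8 and 17.9 CPM in TRa_mKO and 7.19, 4.26 and 4.88 CPM in WT, and so was 2.79-fold higher with no overlap (log2 fold change 1.48, SE 0.20, edgeR adjusted p = 0.00338). Its paralog Cyfip1, which is several times more abundant, had 48.9 ± 4.33 CPM in TRa_mKO and 52.3 ± 3.90 CPM in WT (edgeR adjusted p = 0.66). Eif4ebp1, the translation inhibitor under mTORC1, measured 36.25, 58.3 and 51.2 CPM in TRa_mKO and 24.8, 35.4 and 35.9 CPM in WT (edgeR adjusted p = 0.167; called by DESeq2).

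Of 27 mRNAs of nuclear-encoded mitochondrial proteins, 3 rose and 1 fell in edgeR, where 4.17% of all tested genes were called. Pink1 and known clients of Cluh or Akap1 were among the 27, and the median was 0.02. At an unadjusted p below 0.05 there were 7, against 17.9% of all tested genes. DESeq2 called 7, against 5.45%, and limma-voom 4, against 3.87%. The list was chosen with earlier results of these data known, so these counts do not test the clients as a set. Idh2, the mitochondrial NADP-linked isocitrate dehydrogenase, was 3.06-fold higher (898 ± 179 CPM in TRa_mKO and 294 ± 69.9 CPM in WT, SD, n = 3 each, edgeR adjusted p = 0.00292). Hadha, of the trifunctional beta-oxidation enzyme and a known client of Cluh, was 1.48-fold higher (edgeR adjusted p = 0.0219) and Aldh2, an aldehyde dehydrogenase, 1.40-fold (adjusted p = 0.0324). Pcx, pyruvate carboxylase and likewise a client of Cluh, fell to 35.2 ± 4.68 CPM in TRa_mKO, against 58.1 ± 6.79 CPM in WT (log2 fold change -0.72, edgeR adjusted p = 0.00876). Hadha and Pcx went in opposite directions, and Cluh had a log2 fold change of -0.01. The part of Cluh in either was not tested. Sod2, whose mRNA Akap1 binds, had a log2 fold change of -0.13 (edgeR adjusted p = 0.597). Without TRa_mKO replicate 2 the calls were Hadha and Idh2, and without TRa_mKO replicate 3, WT replicate 2 or WT replicate 3 the calls were Idh2 and Pcx alone; each of these fits called 2 of the 27. Aldh2 also missed the threshold without WT replicate 1 and with library sizes alone.

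**Figure D5:**
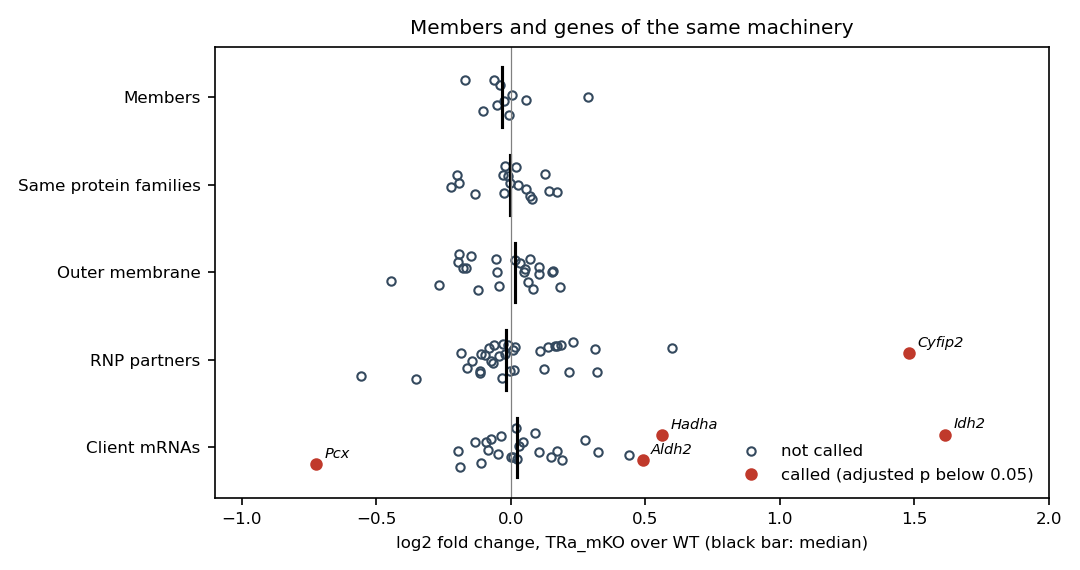
Log2 fold change, TRa_mKO over WT (horizontal axis), of each tested gene in the 5 lists; filled red points passed edgeR's test (adjusted p below 0.05), open points did not, and the black bar is the median. The 10 members lie between -0.17 and 0.29, and Cyfip2 (1.48) and Idh2 (1.61) lie furthest from 0.

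By the root mean square difference of centred log2 CPM over the 6 libraries, the gene nearest to Synj2bp was Pdha1 (0.00987), and Tmem209 was also close (0.0231), each with a log2 fold change of -0.16. Those nearest to Synj2 were Adora2a, Rac2 and Oasl2 (0.0444, 0.0502 and 0.0516). With 6 libraries and 13118 genes, close patterns occur without any link.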

How the data were processed

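Polyadenylated RNA of gastrocnemius was sequenced from 3 TRa_mKO and 3 WT mice, all in batch 1 per the labels. The values are estimated counts for each gene in a table the authors deposited without normalization; 9.65% to 10% of a library's values were not whole. Per the submitters' processing notes, Trimmomatic 0.39, featureCounts, MultiQC 1.12 and FastQC 0.11.9 were used, and GRCm39, GRCm38.p6 and mm10 are listed as builds. No source used here names the aligner, annotation or strand setting. Of 74693 features 17034 had values.

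Counts were rounded, filtered (filterByExpr, minimum count 10), TMM-normalized and tested with edgeR 4.0.16 (quasi-likelihood, robust, genotype as sole factor, R 4.3.3) over all genes. The step was also run on simulated counts with larger changes than those of the members, so that run does not gauge changes of their size. Alternatives used DESeq2 1.42.0, limma 3.58.1 (voom), other scalings and filters, a replicate block and left-out libraries. Log2 ratios used counts plus 0.5. Sequences are from RefSeq and GENCODE M21. Python 3.11.15 drew figures.

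The members and lists were chosen with earlier results of these data known. Named were all members, pair partners, called genes of each list and up to 3 with the smallest p. Mff, Sod2, Cyfip1, Eif4ebp1, Prkacb, Prkar2a, Prkar2b, Pcca, Acat1 and Atp5g1 were added after their values were seen. So were the 6 muscle transcripts, the 5 satellite cell markers, the 5 fat cell markers and the fold changes of endothelial and Schwann cell markers. Counting 3 libraries as separate mice follows the series' design. The result of 1 gene pair is not reported here.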

Additional observations from a re-analysis of the deposited data

How the results depend on the processing

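None of the 10 members passed in any of 15 other fits; the lowest adjusted p was 0.102, for Akap1. Signs near 0 were not stable. The log2 fold change of Khsrp was -0.051 with library sizes alone and -0.0043 without the 10 most abundant genes; without the library richest in haemoglobin of each genotype, an alternative added after seeing the data, that of Cluh was 0.10 and that of Fmr1 -0.052. With 1 library left out, ranges were -0.20 to 0.048 for Synj2, -0.10 to 0.049 for Cluh, -0.16 to 0.0025 for Larp1, -0.17 to 0.02 for Larp4, -0.084 to 0.0058 for Pum2, -0.028 to 0.14 for Fmr1 and -0.041 to 0.066 for Khsrp. The protein family list had 0 calls throughout. The outer membrane list had 1 call, Rhot2, with library sizes alone, without a filter and with DESeq2, and 0 to 1 with 1 library left out. Translation and decay partners had 3 calls with DESeq2 and 1 to 2 with 1 library left out. Client mRNAs had 7 calls with DESeq2, 3 (without Aldh2) with library sizes alone, 2 without the haemoglobin-rich libraries and 2 to 4 with 1 library left out. The cause was not tested. With 1 library left out, the pair difference ran from -0.53 to -0.35 for Synj2bp to Pink1 and from -0.34 to -0.27 for Cluh to Akap1; signs were not stable for Synj2 to Synj2bp (-0.077 to 0.28), Synj2 to Synj1 (-0.18 to 0.095), Fmr1 to Fxr1 (-0.16 to 0.038) and Larp4 to Larp1 (-0.073 to 0.061), and Khsrp to Fubp1 ran from -0.19 to -0.031.

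With the replicate number as a block, 0 members, 2 translation partners (Cyfip2 and Eif4ebp1) and 3 client mRNAs (without Aldh2) passed, and 357 genes in all against 547. Same-numbered libraries deviated from their group means with correlations of -0.182, 0.018 and -0.057, and differently numbered ones with -0.171 to 0.239. With 3 libraries per genotype these values cannot decide whether the numbers pair the samples. Over all genes, library sizes alone gave 213 higher and 255 lower against 331 and 216; 267 passed without the haemoglobin-rich libraries and 209 to 595 with 1 library left out. At 303 to 2354 counts per member, counting error was 2.23% to 5.32%.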
